A study of Rattus norvegicus with 288 samples.

Results

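The data describe 6 rat genes of bile acid synthesis and transport, Cyp7a1, Cyp8b1, Cyp27a1, Nr0b2, Abcb11 and Slc10a1, among 14218 genes measured on Affymetrix whole-genome rat arrays. The genes were chosen by name for their place in the pathway, with earlier results of these data known. Each was read by the probe set annotated to its symbol alone. Each had 1 such probe set: 1368458_at for Cyp7a1, 1368435_at for Cyp8b1, 1387914_at for Cyp27a1, 1368376_at for Nr0b2, 1368769_at for Abcb11 and 1368609_at for Slc10a1. Liver, heart and bone marrow of 96 male Sprague-Dawley rats aged 7 to 8 weeks gave 288 arrays. Every rat, controls included, carried a femoral vein cannula and received an intravenous agent and, 30 minutes later, an oral one. The intravenous agent was temsirolimus at 0.3 mg/kg or its vehicle (TEM_vehicle), and the oral one was sunitinib at 5 mg/kg, sorafenib at 25 mg/kg, sterile water or F68/PG/PEG400. The 8 treatments were thus Temsirolimus + Sunitinib, Temsirolimus + Sorafenib, TEM_vehicle + Sunitinib, TEM_vehicle + Sorafenib, Temsirolimus + sterile water, Temsirolimus + F68/PG/PEG400, TEM_vehicle + sterile water and TEM_vehicle + F68/PG/PEG400. Tissues of 4 rats per treatment were taken 1, 6 or 24 h after dosing ended. Temsirolimus is a rapamycin ester that inhibits mTOR, and sunitinib and sorafenib are inhibitors of several kinases, vascular endothelial growth factor receptors among them. The question of the design was what each drug and each pair of drugs did to gene expression over time. These were healthy rats given 1 dose of each agent, with no tumour.

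Bile acids are made from cholesterol in hepatocytes. Cyp7a1 encodes cholesterol 7 alpha-hydroxylase, the rate-limiting enzyme of the classic pathway. Cyp8b1 encodes the sterol 12 alpha-hydroxylase that sets how much cholic acid is formed, and Cyp27a1 encodes the mitochondrial sterol 27-hydroxylase, which oxidizes the side chain and starts the alternative pathway. Nr0b2 encodes the small heterodimer partner (SHP), a nuclear receptor without a DNA-binding domain that the bile acid receptor FXR (Nr1h4) induces and that represses Cyp7a1 and Cyp8b1. Abcb11 is the bile salt export pump of the canalicular membrane, and Slc10a1 is the sodium-taurocholate cotransporter that takes bile salts up from portal blood. Expression of Cyp7a1 in rat liver is known to vary with the time of day and with feeding.

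Signals were on a log2 scale after RMA, on which a difference of 1 is a doubling. They were compared only within a gene, since signals of different probe sets are not on a common scale. The precision was limited by how many rats a group held. Unless stated otherwise, a change is the difference of group means from a limma fit over the 96 liver arrays, with its standard error (SE), and a gene was called when its p-value, adjusted by Benjamini-Hochberg over the 14218 genes, was under 0.05. The rats were separate animals. Among the livers the array of rat 7M78 (TEM_vehicle + Sunitinib, 24 h) stood apart with a compressed signal distribution. Its quantiles had a root mean square deviation of 0.535 from the mean quantiles of the 96 livers. The highest deviations were 0.388 in the marrow (rat 4M45) and 0.140 in the heart (rat 4M48). Called changes of members that include 7M78 or 4M48, a liver array that the study singled out, are also given without both arrays. In each group, 2 rats had arrays named for other plates than the other 2, and this array set entered the fit as a term within each time. The 14 hepatocyte markers had a mean signal of 14.29 to 14.69 over the 96 livers, with 7M78 the lowest. Fewer cells of a type and less RNA per cell cannot be told apart in such tissue samples.

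In the liver all 6 genes gave strong signals. Slc10a1 had a median of 13.63 and a range of 13.37 to 13.84 over the 96 livers. Abcb11 had a median of 12.71 (11.94 to 12.98) and Cyp27a1 one of 12.72 (11.66 to 13.14). The liver of 7M78 had the lowest signal of all 3. Cyp7a1 ran from 8.75 to 13.50 with a median of 12.18. Cyp8b1 ran from 9.001 to 12.83 with a median of 11.43, and Nr0b2 from 8.21 to 11.20 with a median of 9.79.

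**Figure D1:**
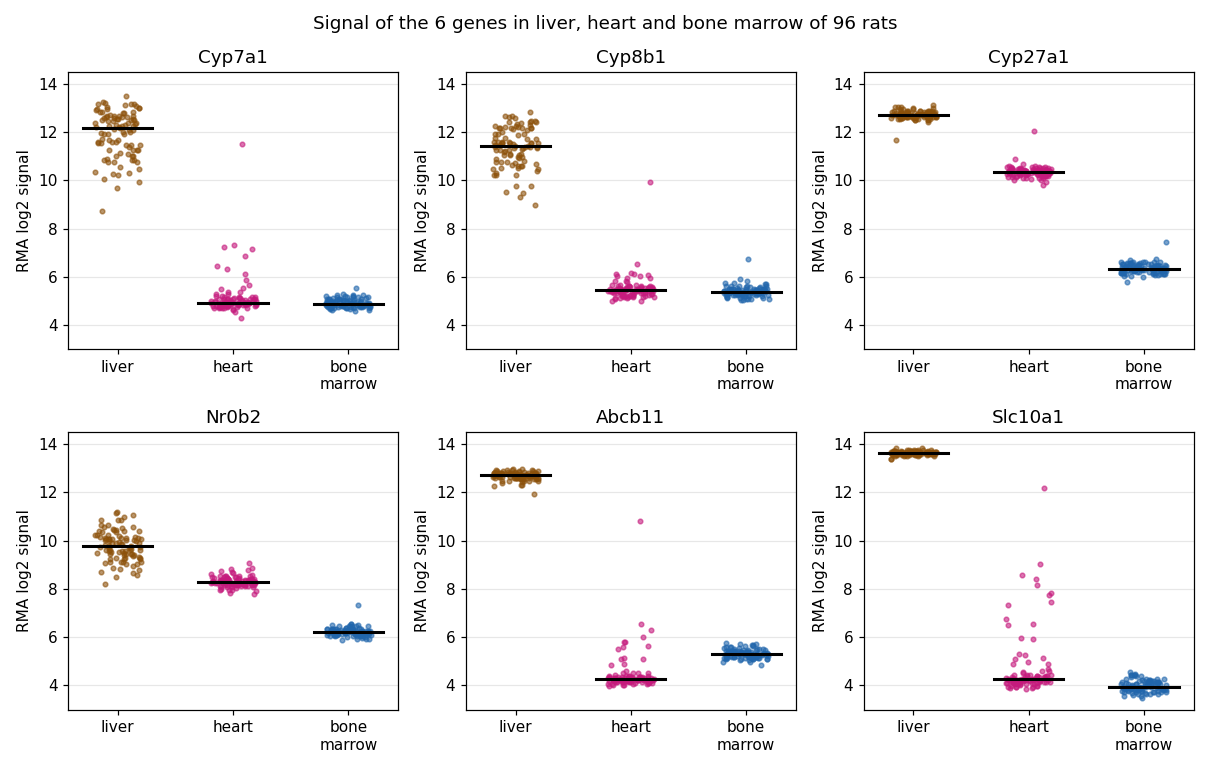
RMA log2 signal (vertical axes) of the 6 genes in liver, heart and bone marrow (horizontal axes), with 1 point per rat (96 per tissue) and a bar at the median. The genes had their highest medians in the liver, Cyp27a1 (10.36) and Nr0b2 (8.29) had clear signals in the heart as well, and 1 heart (rat 6M68) carried liver-range signals of several genes.

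Heart and bone marrow set the contrast. Cyp27a1, which many tissues express, had a median of 10.36 in the heart (9.82 to 12.05) and 6.34 in the marrow (5.80 to 7.47). Nr0b2 had a median of 8.29 in the heart (7.81 to 9.08), which overlapped the lower livers, and 6.21 in the marrow (5.90 to 7.33). For both genes the order of medians was liver, heart, marrow. Which arrays were normalized together is not given in the sources used here, so levels set across tissues are a description only. The other genes were low in both tissues. Cyp7a1 had a median of 4.94 in the heart and 4.88 in the marrow, and Cyp8b1 one of 5.46 and 5.38. Slc10a1 had a median of 4.26 in the heart and 3.93 in the marrow, and Abcb11 one of 4.28 in the heart and 5.31 in the marrow. Heart and marrow overlapped for Cyp7a1, Cyp8b1 and Slc10a1. For Abcb11, 83 of the 96 hearts lay below the lowest marrow (4.86), and the other 13 had hepatocyte marker levels of 9.57 to 14.25. The high hearts also held other liver transcripts. The heart of rat 6M68 (Temsirolimus + Sorafenib, 1 h) had the highest signal of all 6 genes, among them 11.51 for Cyp7a1 and 12.20 for Slc10a1, and a hepatocyte marker level of 14.25 against a median of 6.14 over all hearts. The hearts of 4M42, 5M53, 5M51 and 5M52 followed, with marker levels of 12.25, 11.93, 11.73 and 11.40 and Slc10a1 signals of 9.02, 8.59, 8.43 and 8.15. The part of liver RNA in these heart signals was not tested. In the marrow, rat 4M45 had the highest hepatocyte level (5.82) and the highest signal of 4 of the 6 genes.

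Promoters of Cyp8b1 and Nr0b2 are shown because at 6 h the liver mean of Cyp8b1 was highest and that of Nr0b2 lowest. The Nr0b2 differences between 6 h and the other times were called only in the drug-treated rats. RefSeq tables (build GRCr8) held promoters for 4 of the 6 members, Cyp8b1, Cyp27a1, Nr0b2 and Slc10a1. The 250 bases before the annotated start are given 5′ to 3′ on the strand of the gene, with matches to the motifs searched in capitals. Cyp8b1 lies on the minus strand at chr8:130457593-130457842 and Nr0b2 on the plus strand at chr5:151062910-151063159.
Cyp8b1: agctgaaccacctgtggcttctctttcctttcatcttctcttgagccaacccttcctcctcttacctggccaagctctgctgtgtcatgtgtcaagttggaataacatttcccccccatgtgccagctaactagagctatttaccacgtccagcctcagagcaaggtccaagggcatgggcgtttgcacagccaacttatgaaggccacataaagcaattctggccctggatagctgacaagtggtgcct
Nr0b2: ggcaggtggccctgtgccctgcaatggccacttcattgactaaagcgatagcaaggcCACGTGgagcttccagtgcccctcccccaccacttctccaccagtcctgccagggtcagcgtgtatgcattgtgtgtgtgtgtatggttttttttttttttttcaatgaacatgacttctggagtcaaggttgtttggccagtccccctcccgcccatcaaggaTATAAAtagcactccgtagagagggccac
The motifs were searched on both strands over 33469 promoters of this length. Only exact matches counted, with N as any base, so a site with a changed base was not found. Nr0b2 held the E-box CACGTG, to which clock and other basic helix-loop-helix factors are known to bind, 193 to 188 bases before its start, and 5.59% of all promoters held one. It also held TATAAA 29 to 24 bases before the start (12.9% of promoters). The nuclear receptor half-site AGGTCA, present in 14.1% of promoters, was in those of Cyp27a1 and Slc10a1, at 2 places each. In Cyp27a1 the match 236 bases before the start was part of CAAGGTCA, the letters searched for NR5A2, and 1.33% of promoters held them. The promoter of Cyp8b1 held no match to any of these letters, nor did any of the 4 to AGGTCA as an inverted (0.0269%) or direct (0.0508%) repeat with 1 base between, to the D-box TTATGNAA (3.28%) or to the HNF1 palindrome (0.00299%).

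Rats of 1 group differed far more in some members than in others. The pooled standard deviation within liver groups was 0.69 for Cyp7a1, higher than that of 99.4% of all genes, 0.54 for Nr0b2 (98.8%) and 0.41 for Cyp8b1 (97.1%). It was 0.18 for Cyp27a1 (51.8%) and 0.14 for Abcb11 (24.6%), beside a median over all genes of 0.17. Slc10a1 had 0.078, and only 0.513% of genes varied less. The medians of the 24 liver groups spread over 2.65 for Cyp7a1, more than for 99.7% of all genes, 2.54 for Cyp8b1 (99.6%) and 1.37 for Nr0b2 (98.0%). They spread over 0.32 for Abcb11 (38.9%), 0.20 for Cyp27a1 (4.7%) and 0.16 for Slc10a1 (1.05%). Cyp7a1, Cyp8b1 and Nr0b2 thus varied widely between rats and between groups, while Cyp27a1 varied between rats like a typical gene and little between groups.

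**Figure D2:**
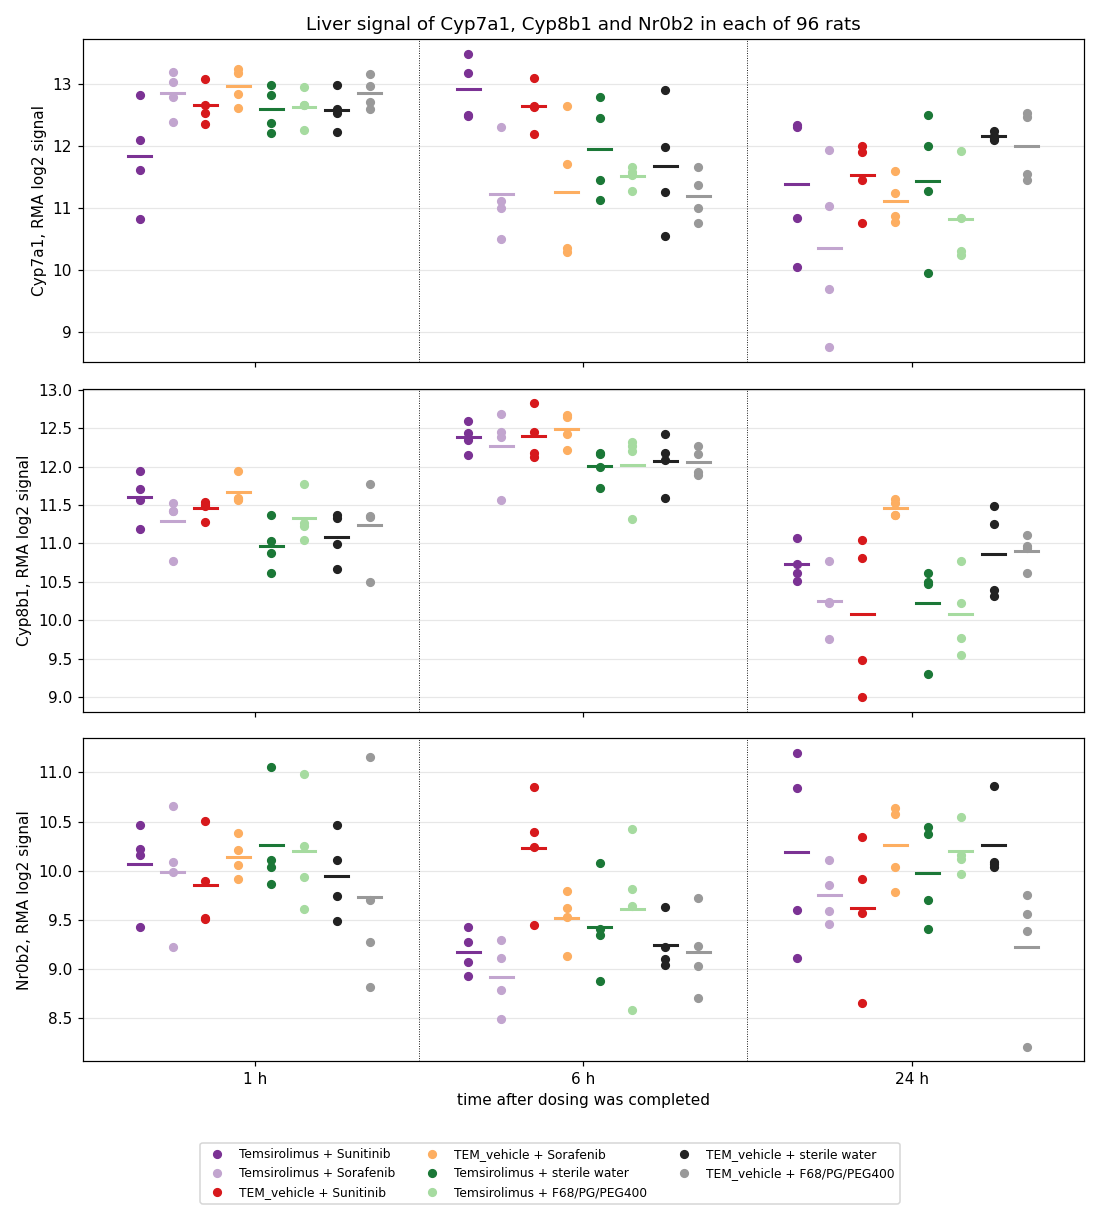
RMA log2 liver signal (vertical axes) of Cyp7a1, Cyp8b1 and Nr0b2 in each rat, with 4 rats per treatment (colour) at 1, 6 and 24 h (horizontal axis) and a bar at the mean. Cyp8b1 was highest at 6 h in all 8 treatments, and Cyp7a1 in both sunitinib treatments stood at means of 12.65 and 12.92 at 6 h.

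The lowest adjusted p-values of these genes were those of changes over time (limma). In TEM_vehicle + sterile water rats, Cyp8b1 had signals of 11.33, 11.37, 10.99 and 10.67 at 1 h, 12.18, 11.59, 12.42 and 12.09 at 6 h, and 10.32, 10.39, 11.26 and 11.48 at 24 h. In TEM_vehicle + F68/PG/PEG400 rats they were 11.77, 10.50, 11.36 and 11.34 at 1 h, 11.89, 12.26, 12.16 and 11.93 at 6 h, and 10.62, 10.94, 11.11 and 10.96 at 24 h. Every vehicle rat at 6 h lay above every one at 24 h, while 1 h and 6 h overlapped. How many of all genes had no overlap between times was not counted. Over both vehicle treatments (8 rats per time), Cyp8b1 rose by 0.90 (SE 0.20) at 6 h against 1 h, or 1.87-fold, with an adjusted p of 0.00356 (limma). It fell by 1.18 (SE 0.20) at 24 h against 6 h, with an adjusted p of 2.2e-05. Of all genes, 2.71% were called at 6 h against 1 h, 4.75% at 24 h against 6 h and 0.113% at 24 h against 1 h. Leaving out any 1 of the 16 rats kept both Cyp8b1 calls.

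Cyp7a1 moved the other way in the first hours. In TEM_vehicle + sterile water rats its signals were 12.54, 12.99, 12.24 and 12.60 at 1 h, 11.98, 11.26, 10.55 and 12.92 at 6 h, and 12.25, 12.14, 12.10 and 12.16 at 24 h. In TEM_vehicle + F68/PG/PEG400 rats they were 12.71, 13.17, 12.61 and 12.97 at 1 h, 11.66, 11.01, 11.38 and 10.76 at 6 h, and 11.55, 12.48, 12.54 and 11.45 at 24 h. In 7 of the 8 vehicle rats the 6 h signal was below all of the 1 h signals, and rat 1M10 at 12.92 was the exception. The fall at 6 h against 1 h was 1.29 (SE 0.34), so that the signal at 1 h was 2.44 times that at 6 h, with an adjusted p of 0.019. Without rat 1M9 (10.55 at 6 h) the change was -1.12, with an adjusted p of 0.0777. The later difference of 0.64 (SE 0.34) at 24 h against 6 h was not called (adjusted p = 0.351).

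The repressor Nr0b2 was lower at 6 h than at 1 h by 0.63 (SE 0.26, adjusted p = 0.19) and higher at 24 h than at 6 h by 0.54 (SE 0.26, adjusted p = 0.284), and neither difference was called. Abcb11 was lower at 24 h than at 6 h by 0.21 (SE 0.071, adjusted p = 0.0726). Cyp27a1 and Slc10a1 differed by at most 0.09 between any pair of times in the vehicle rats, and none of these differences was called. Hours since dosing and hour of day cannot be told apart in this design. Nr1d1, which encodes the clock repressor REV-ERB alpha and is listed here among the regulators of bile acid genes, had a mean of 6.07 at 1 h, 8.65 at 6 h and 5.84 at 24 h in the same livers. It rose by 2.58 (SE 0.16) and then fell by 2.82 (SE 0.16), with adjusted p of 1.94e-22 and 1.03e-24.

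**Figure D3:**
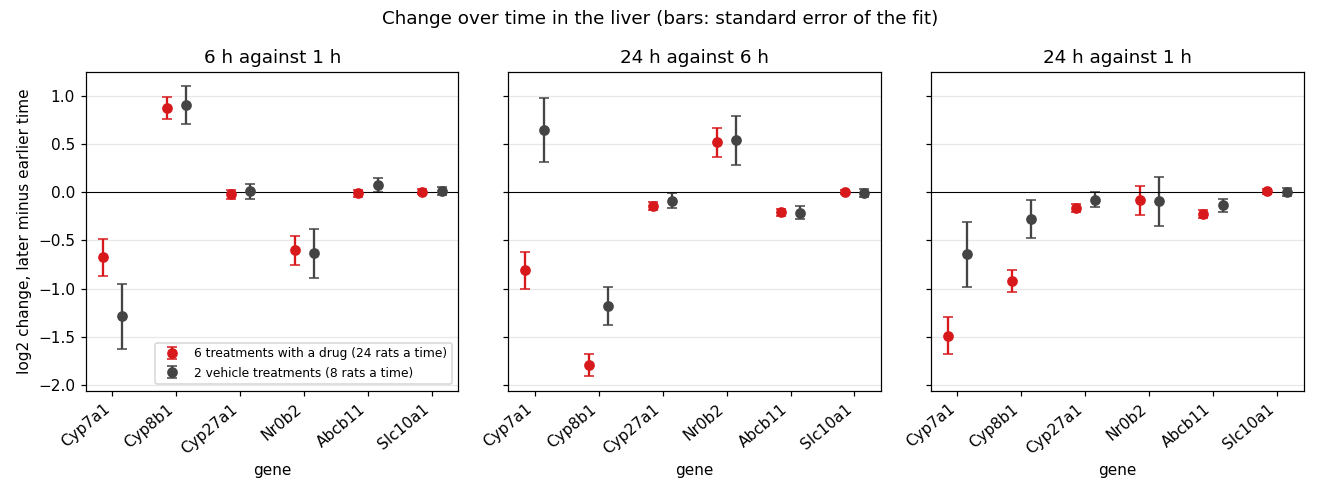
Log2 change between times in the liver (vertical axis) of the 6 genes (horizontal axis), in the 6 treatments with a drug (24 rats per time, left point of each pair) and in the 2 vehicle treatments (8 rats per time, right point), with bars of 1 standard error. Cyp8b1 rose and then fell in both sets, while Cyp7a1 at 24 h against 6 h was at -0.81 in drug-treated and at 0.64 in vehicle rats.

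The 6 treatments with a drug, which share no rat with the vehicle ones, were fitted in the same way after the vehicle values had been seen. With 24 rats per time they made more calls, 19.8% of genes at 6 h against 1 h, 43.6% at 24 h against 6 h and 20.4% at 24 h against 1 h, so a called member there stands against a far larger background. Cyp8b1 had a mean of 11.39 at 1 h, 12.26 at 6 h and 10.47 at 24 h. It rose by 0.88 (SE 0.11, adjusted p = 7.71e-09) and then fell by 1.79 (SE 0.11, adjusted p = 5.56e-22). Its mean was higher at 6 h than at 1 h, and lower at 24 h than at 6 h, in 8 of 8 treatments. Nr0b2 had a mean of 10.09 at 1 h, 9.48 at 6 h and 10.00 at 24 h. It fell by 0.60 (SE 0.15, adjusted p = 0.00148) and rose again by 0.52 (SE 0.15, adjusted p = 0.00387). Its lowest mean was at the time of the highest Cyp8b1 mean, while Cyp7a1 fell by 0.68 at the step where Nr0b2 fell. At 24 h against 1 h Cyp8b1 differed by -0.92 (SE 0.11, adjusted p = 4.02e-09) and Nr0b2 by -0.09 (SE 0.15, adjusted p = 0.712). Among treatment means, TEM_vehicle + Sunitinib alone ran against the first fall of Nr0b2, with 0.38 more Nr0b2 at 6 h than at 1 h. Abcb11 fell by 0.21 at 24 h against 6 h (SE 0.041, adjusted p = 3.56e-05) and Cyp27a1 by 0.14 (SE 0.046, adjusted p = 0.00978). Both had lower means at 24 h than at 6 h in 8 of 8 treatments. Slc10a1 differed by at most 0.01 between any pair of times. Without 7M78 and 4M48, 41.7% of genes were called at 24 h against 6 h and the same 5 members were among them, Cyp8b1 at -1.74, Nr0b2 at 0.58, Abcb11 at -0.18, Cyp27a1 at -0.11 and Cyp7a1 at -0.74 (adjusted p of 0.0152 or less).

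Averaged over the 6 treatments with a drug, Cyp7a1 fell at both steps. Its mean there was 12.60 at 1 h, 11.92 at 6 h and 11.11 at 24 h, a fall of 0.68 (SE 0.19, adjusted p = 0.0073) followed by one of 0.81 (SE 0.19, adjusted p = 0.000616). The treatments were not alike at the first step. Temsirolimus + Sunitinib had a mean of 11.84 at 1 h and 12.92 at 6 h, a difference of 1.08, and TEM_vehicle + Sunitinib had 12.67 at 1 h and 12.65 at 6 h, while TEM_vehicle + Sorafenib had 12.97 at 1 h and 11.25 at 6 h. Of all 8 treatments, 7 had a lower mean at 6 h than at 1 h, 6 had a lower mean at 24 h than at 6 h, and 8 had a lower mean at 24 h than at 1 h. At 24 h the 24 rats given a drug ran from 8.75 to 12.51 with a median of 11.14, and the 8 vehicle rats from 11.45 to 12.54 with a median of 12.15. The groups overlapped, but the mean was 11.11 ± 0.95 with a drug and 12.08 ± 0.39 in vehicle rats (SD, n = 24 and 8). The difference of -0.98 (SE 0.27) had an adjusted p of 0.0282, in a comparison that called 3.45% of genes and was also made after the values had been seen. Leaving out any of 5 vehicle rats (1M5, 1M11, 1M12, 2M18 and 2M23) ended the call, with adjusted p up to 0.099. Without 7M78 and 4M48 the difference was -0.90 (adjusted p = 0.0378, 5.37% of genes called). The same comparison called 0% of genes and no member at 1 h, and 0.331% and no member at 6 h. Whether the change between times itself differed between drug and vehicle rats was tested too. For Cyp7a1 it differed by -1.46 (SE 0.39) at 24 h against 6 h, which was not called (adjusted p = 0.116) in a test that called 0.0703% of genes. The tests for 6 h against 1 h and 24 h against 1 h called 0% and 0.0422% of genes, and none of the members.

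The drugs were compared with their vehicles at each time. At 1 h no gene was called in any of the 8 drug comparisons or between the oral vehicles (0% each), and 1 of the 48 member tests had an unadjusted p under 0.05 (limma). Of all 14218 genes, 209 to 678 per drug comparison were under that value. At 6 h no member was called either, with 5 of 48 under an unadjusted 0.05. Per drug comparison, 451 to 1009 of all 14218 genes were under it at 6 h. The share of all genes called there was 0% for temsirolimus alone, 0.12% for sunitinib alone, 0.225% for sorafenib alone, 0.0703% for temsirolimus with sunitinib and 0.0492% for temsirolimus with sorafenib. It was 0.00703% for temsirolimus in rats given an oral drug, 0.0281% for sunitinib and 0.148% for sorafenib in rats given temsirolimus, and 0.218% between the oral vehicles. At 24 h, 1 of 48 member tests was called and 10 had an unadjusted p under 0.05. Per drug comparison, 0.00703% to 9.99% of all genes were called, and 482 to 5387 of the 14218 were under an unadjusted 0.05.

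**Figure D4:**
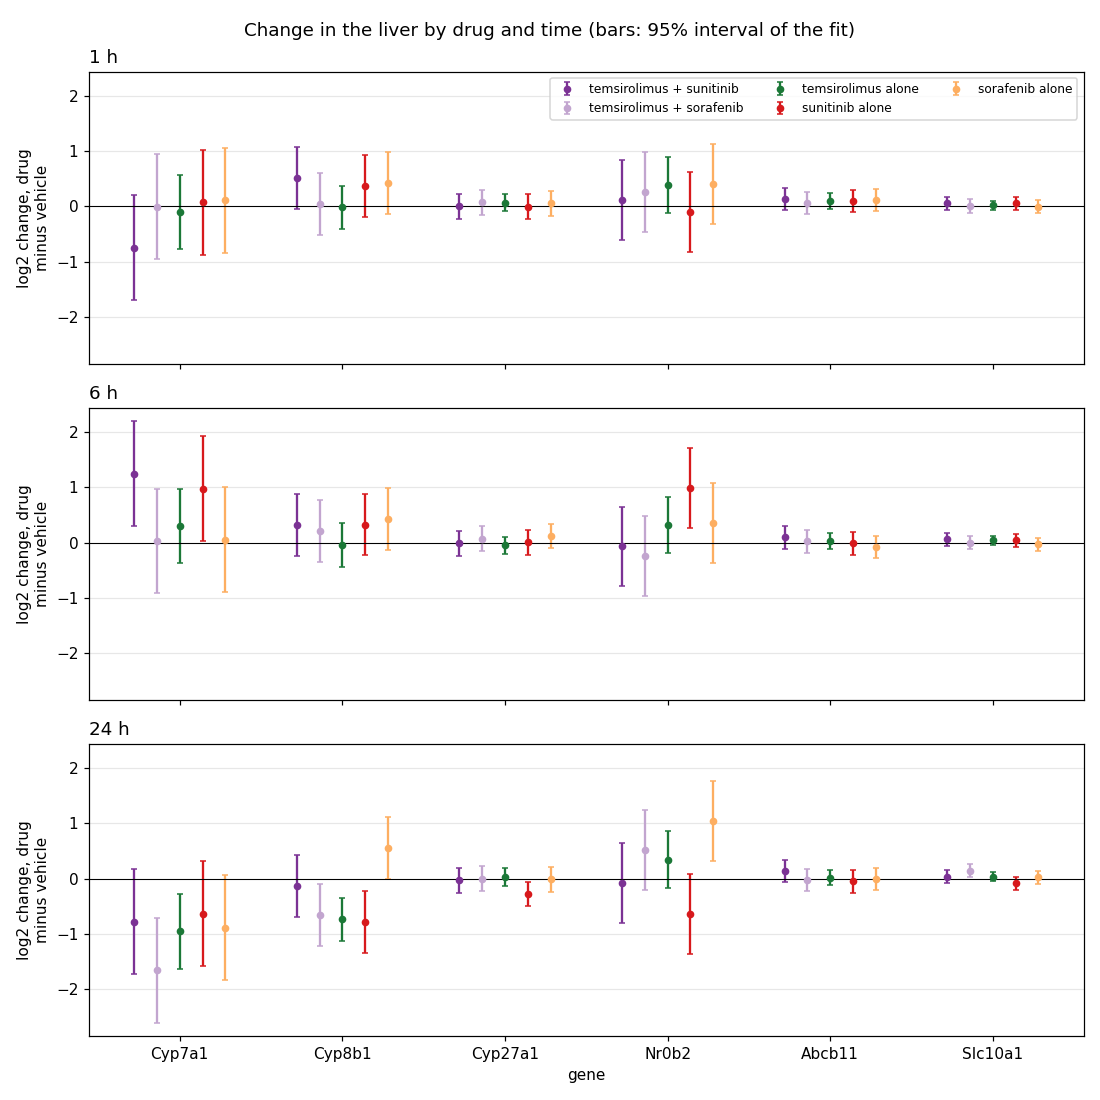
Log2 change against the matching vehicle rats in the liver (vertical axis) of the 6 genes (horizontal axis) at 1, 6 and 24 h (panels), for the 2 drug pairs and the 3 drugs alone (colours), with bars of the 95% interval of the fit. The intervals were wide for Cyp7a1 and Nr0b2 and narrow for Abcb11 and Slc10a1, and the called change was Cyp8b1 with temsirolimus alone at 24 h, at -0.74.

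The called change was a lower Cyp8b1 signal 24 h after temsirolimus alone. Signals were 10.61, 9.30, 10.49 and 10.47 in Temsirolimus + sterile water rats and 10.77, 10.22, 9.54 and 9.76 in Temsirolimus + F68/PG/PEG400 rats. In the vehicle rats they were 10.32, 10.39, 11.26 and 11.48 with sterile water and 10.62, 10.94, 11.11 and 10.96 with F68/PG/PEG400. The 4 lowest livers were temsirolimus ones and the 5 highest vehicle ones, with overlap between 10.32 and 10.77. Cyp8b1 averaged 10.15 ± 0.54 with temsirolimus and 10.88 ± 0.41 in vehicle rats (SD, n = 8 each). It fell by 0.74 (SE 0.20), a signal 1.67 times higher in vehicle rats, with an adjusted p of 0.0209, and 3.09% of all genes were called. The difference was -0.64 in the water rats and -0.83 in the F68/PG/PEG400 rats, which alone did not pass (adjusted p = 0.62 and 0.127). Leaving out 1 rat ended the call for 5 of the 16, namely 1M11, 1M12, 3M30, 4M47 and 4M48, with adjusted p up to 0.0872. Without 4M48 and 7M78 it was -0.67 (adjusted p = 0.035, 5.82% of genes called). By array set it was -0.34 in set A and -1.14 in set B. Hepatocyte markers had a mean signal of 14.63 to 14.67 in both groups, and none of the 14 was called.

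In rats given an oral drug, Cyp8b1 at 24 h was lower with temsirolimus in the sorafenib rats. In the sunitinib rats its difference was not called, and the sign of that difference was not the same in both array sets. With sorafenib, signals were 10.23, 10.77, 9.76 and 10.22 in Temsirolimus + Sorafenib rats and 11.58, 11.37, 11.38 and 11.53 in TEM_vehicle + Sorafenib rats. All 4 temsirolimus livers lay below all 4 others, and the share of all genes with such a gap was not counted. Within these rats Cyp8b1 fell by 1.22 (SE 0.28, adjusted p = 0.0233), in a comparison, made after the values had been seen, that called 0.302% of genes. The call ended without any one of 6M65, 6M71, 6M72, 8M89, 8M95 or 8M96 (adjusted p up to 0.21) and held without 6M66 or 8M90. The change was -0.97 in array set A and -1.46 in set B. Endothelial markers were at 9.51 to 9.64 in Temsirolimus + Sorafenib and 9.13 to 9.62 in TEM_vehicle + Sorafenib livers, and their part in the Cyp8b1 signals was not tested.

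With sunitinib, Cyp8b1 signals were 10.51, 11.08, 10.73 and 10.61 in Temsirolimus + Sunitinib rats and 9.001, 9.48, 11.04 and 10.81 in TEM_vehicle + Sunitinib rats. The groups overlapped, and the low livers without temsirolimus were 7M77 and 7M78. The difference of 0.65 (SE 0.28, adjusted p = 0.131) was not called, where 7.03% of genes were, and it was 0.49 without 7M78 and 4M48. Leaving out 7M83 or 7M84, which leaves both low livers among 3, gave 0.94 and 0.86, both called (adjusted p = 0.0186 and 0.0326, with 20.8% and 21.9% of genes called). By array set it was 1.56 in set A, which holds 7M77 and 7M78, and -0.26 in set B. The sunitinib difference minus the sorafenib one was 1.87 (SE 0.40, adjusted p = 0.0555), and 0% of genes were called in that test. Without 7M78 and 4M48 it was 1.71 (adjusted p = 0.0156, 5.01% of genes called), and with any 1 of the 16 rats left out its adjusted p ran from 0.00942 to 0.204. Averaged over both oral drugs, Cyp8b1 differed by -0.28 (SE 0.20, adjusted p = 0.334) in a comparison that called 7.86% of genes, and by -0.36 (adjusted p = 0.394) without both arrays. Averaged over all 4 oral agents, which was done after the values had been seen, Cyp8b1 was lower with temsirolimus by 0.51 (SE 0.14, adjusted p = 0.00955) and Cyp7a1 by 0.71 (SE 0.24, adjusted p = 0.039), with 11.9% of genes called. This average of Cyp8b1 includes the sunitinib rats, in which the difference was 0.65 and not called. Without both arrays the values were -0.51 (adjusted p = 0.00945) for Cyp8b1 and -0.74 (adjusted p = 0.0341) for Cyp7a1, with 13.2% of genes called.

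Cyp7a1 itself was not called with temsirolimus alone at 24 h. Its signals were 12.51, 9.96, 12.00 and 11.28 in Temsirolimus + sterile water rats and 11.93, 10.84, 10.24 and 10.30 in Temsirolimus + F68/PG/PEG400 rats, against 11.45 to 12.54 in the 8 vehicle rats. Of the 8 temsirolimus livers, 5 lay below every vehicle liver. The difference of -0.95 (SE 0.34) had an adjusted p of 0.114. The F tests of whether the temsirolimus effect changed with time called 0.148% of genes and neither Cyp7a1 (adjusted p = 0.848) nor Cyp8b1 (0.729). Nr0b2 differed by 0.34 (SE 0.26) with temsirolimus alone at 24 h and was not called.

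Temsirolimus with sorafenib gave the lowest Cyp7a1 livers of the study. At 24 h the signals were 11.03, 11.94, 8.75 and 9.68 in Temsirolimus + Sorafenib rats and 11.55, 12.48, 12.54 and 11.45 in TEM_vehicle + F68/PG/PEG400 rats. Rats 6M71 and 6M72 held the 2 lowest values of all 96 livers, while 6M66 lay within the vehicle range. The difference of -1.65 (SE 0.48), a signal 3.14 times higher in vehicle rats, was not called (adjusted p = 0.0939), and 0.535% of genes were. It passed without the arrays of 4M48 and 7M78, which are not in the comparison but enter the shared variance (adjusted p = 0.0432). It also passed without 6M66, at -2.19 (adjusted p = 0.021). By array set it was -0.53 in set A and -2.78 in set B. The 5 endothelial markers had a mean signal of 9.51 to 9.64 in these pair-treated livers and 9.75 to 9.95 in the vehicle ones, and 2 of the 5 fell. Hepatocyte markers had 14.63 to 14.66 in pair-treated and 14.63 to 14.67 in vehicle livers. The part of these markers in the Cyp7a1 signals was not tested. Sorafenib alone at 24 h had Cyp7a1 signals of 11.59, 11.24, 10.87 and 10.78, a difference of -0.88 from the same vehicle rats that was not called, in a comparison that called 0.0563% of genes.

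With sorafenib alone at 24 h, where 0.0563% of all genes were called, neither Nr0b2 nor Cyp8b1 was called. The share of all genes whose 4 and 4 livers did not overlap was not counted. Nr0b2 had signals of 10.58, 10.64, 10.04 and 9.78 in TEM_vehicle + Sorafenib rats and 8.21, 9.56, 9.75 and 9.39 in TEM_vehicle + F68/PG/PEG400 rats. The groups did not overlap, and the difference was 1.03 (SE 0.36), or 2.05-fold, but with an adjusted p of 0.774 it was not called. By array set it was 1.72 in set A and 0.34 in set B. Rat 2M17 at 8.21 was the lowest of all 96 livers for Nr0b2. Cyp8b1 had signals of 11.58, 11.37, 11.38 and 11.53 with sorafenib and 10.62, 10.94, 11.11 and 10.96 with its vehicle. These groups did not overlap either, with a difference of 0.56 (SE 0.28, adjusted p = 0.865), at 0.70 in set A and 0.42 in set B. Endothelial markers were 9.13 to 9.62 with sorafenib and 9.75 to 9.95 with its vehicle, and 2 of 5 fell. Their part in the member values was not tested. In rats given temsirolimus, sorafenib left Nr0b2 at 9.75 ± 0.29, against 10.20 ± 0.25 with the oral vehicle (SD, n = 4 each). The test of this interaction over the 3 times gave Nr0b2 an adjusted p of 1 (unadjusted p = 0.00492) and called 0% of genes. At 24 h, sorafenib in rats given temsirolimus called 0.0985% of genes and no member. The sorafenib effect by time called 0.0141% of genes and no member.

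With sunitinib at 6 h, Cyp7a1 had higher means than with sterile water, without being called. Signals were 12.63, 12.20, 13.11 and 12.65 in TEM_vehicle + Sunitinib rats and 11.98, 11.26, 10.55 and 12.92 in TEM_vehicle + sterile water rats. All 4 sunitinib livers were above 3 of the 4 vehicle livers. The difference was 0.97 (SE 0.48, adjusted p = 0.684). In rats given temsirolimus the signals were 13.50, 12.51, 13.18 and 12.49 with sunitinib and 11.14, 12.46, 12.79 and 11.45 with sterile water, a difference of 0.96 (SE 0.48, adjusted p = 1). Rat 5M51, at 13.50, had the highest Cyp7a1 signal of all livers. Averaged over both intravenous agents (8 rats each), the difference was 0.97 (SE 0.34) with an unadjusted p of 0.00526 and an adjusted p of 0.55, so the difference was not called in any of these fits. Temsirolimus + Sunitinib against TEM_vehicle + sterile water differed by 1.24 (SE 0.48, adjusted p = 0.493).

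Nr0b2 at 6 h after sunitinib alone had signals of 9.45, 10.85, 10.40 and 10.24 in TEM_vehicle + Sunitinib rats and 9.10, 9.04, 9.63 and 9.22 in TEM_vehicle + sterile water rats. The difference of 0.99 (SE 0.36) was not called (adjusted p = 0.454). With temsirolimus and sunitinib together the signals were 9.43, 9.27, 9.07 and 8.93, all below those of sunitinib alone. How many of all genes were separated in this way was not counted. Over both oral drugs at 6 h, Nr0b2 averaged 9.05 ± 0.31 in temsirolimus rats and 9.88 ± 0.57 in TEM_vehicle rats (SD, n = 8 each), a difference of -0.83 (SE 0.26, adjusted p = 0.516). The interaction of temsirolimus and sunitinib over the 3 times called 0% of genes, and the adjusted p of Nr0b2 was 0.718.

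At 24 h sunitinib alone called 9.99% of genes, and all 6 members had a negative difference, but none was called. The share of all genes with a negative difference was not counted. In array set A, which holds 7M78, Cyp27a1, Abcb11 and Slc10a1 differed by -0.56, -0.24 and -0.20. In set B they differed by 0.0017, 0.14 and 0.04. Cyp7a1, Cyp8b1 and Nr0b2 had a negative difference in both sets. Cyp8b1 had signals of 9.001, 9.48, 11.04 and 10.81 in TEM_vehicle + Sunitinib rats and 10.32, 10.39, 11.26 and 11.48 in TEM_vehicle + sterile water rats, a difference of -0.78 (SE 0.28, adjusted p = 0.053). The pair of low livers was 7M77 and 7M78, and 7M77 at 9.001 was the lowest of all 96. The median change of all genes was -0.09 in this comparison. Cyp27a1 had 11.66 in 7M78 and 12.58 to 12.72 in the other rats given sunitinib. Without the arrays of 7M78 and 4M48 no gene was called (0%), and Cyp8b1 differed by -0.62 (SE 0.30, adjusted p = 0.999). Nr0b2 differed by -0.64 with these arrays and by -0.32 without them. Cyp7a1 had 10.75 to 12.00 with sunitinib and 12.10 to 12.25 with sterile water. The difference of -0.63 (adjusted p = 0.316) was -0.35 without the arrays. Hepatocyte markers were at 14.29 to 14.68 with sunitinib and 14.64 to 14.66 with sterile water, with 1 of 14 fallen, and endothelial markers at 8.91 to 9.94 and 9.92 to 9.99, with 1 of 5 fallen. Their part in the member values was not tested. In rats given temsirolimus, sunitinib at 24 h called 0.00703% of genes and no member, with Cyp8b1 at 10.73 ± 0.25 with sunitinib and 10.22 ± 0.62 with sterile water (SD, n = 4 each). Temsirolimus with sunitinib called 1.06% of genes and no member. The sunitinib effect by time called 0.00703% of genes, and the adjusted p was 0.164 for Cyp8b1 and 0.169 for Nr0b2. In the 5 F tests together 0 of 30 member tests were called and 7 had an unadjusted p under 0.05 (limma). Of all 14218 genes, 549 to 2992 per F test were under that value.

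F68/PG/PEG400 against sterile water called 0% of genes at 24 h, and the member differences lay between -0.46 and 0.25 over the 3 times, with none called and none of 18 under an unadjusted p of 0.05. Of all 14218 genes, 411 to 631 per time were under that value. Over all 27 drug and vehicle comparisons, Slc10a1 ranged from -0.08 to 0.14, Abcb11 from -0.08 to 0.14 and Cyp27a1 from -0.28 to 0.13. The highest value of Slc10a1 was that of temsirolimus with sorafenib at 24 h, where 4 rats at 13.70 to 13.78 lay above 4 vehicle rats at 13.53 to 13.67. It was not called (adjusted p = 0.443), and the share of all genes without overlap was not counted.

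Other genes of the pathway were read from lists of 16 synthesis and conjugation enzymes, 14 further transporters and 15 regulators found on the arrays. The lists too were chosen with earlier results of these data known. With temsirolimus alone at 24 h, where 3.09% of all genes were called, 1 of 16 enzymes rose, 1 of 14 transporters rose and 1 fell, and none of the 15 regulators passed. The medians of the lists were 0.04, 0.07 and 0.04, beside 0.01 over all genes. Abcc4, an export pump of the basolateral membrane, averaged 6.45 ± 0.38 with temsirolimus and 7.02 ± 0.10 in vehicle rats (SD, n = 8 each), a fall of 0.57 (SE 0.14, adjusted p = 0.00841). It fell as well with temsirolimus and sunitinib at 24 h, by 0.79 (SE 0.20, adjusted p = 0.021), where 1.06% of all genes were called. Abcc4 had 5.95 to 6.37 in Temsirolimus + Sunitinib rats and 6.92 to 7.20 in TEM_vehicle + sterile water rats. Abcb4, the canalicular phospholipid floppase, rose by 0.39 (SE 0.12, adjusted p = 0.0498) with temsirolimus alone. Amacr, a racemase of side-chain oxidation, rose by 0.36 (SE 0.11, adjusted p = 0.0389). Temsirolimus in rats given an oral drug called 7.86% of all genes at 24 h. There 1 of 16 enzymes and 1 of 14 transporters rose, shares near that of all genes. Baat, which conjugates bile acids to glycine and taurine, was higher by 0.19 (adjusted p = 0.0166). The uptake carrier Slco1a4 was higher by 0.42 (adjusted p = 0.0363). Without the arrays of 4M48 and 7M78 these differences were 0.12 and 0.35, with adjusted p of 0.114 and 0.16, and neither was called.

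With sorafenib alone at 6 h, where 0.225% of all genes were called, 2 of 15 regulators rose, with a list median of 0.16 beside -0.01 over all genes. Nr1d1 averaged 9.53 ± 0.35 with sorafenib and 8.48 ± 0.26 with its vehicle (SD, n = 4 each), a rise of 1.05 (SE 0.22, adjusted p = 0.00864). Ppara, a fatty acid receptor, rose by 0.73 (SE 0.16, adjusted p = 0.00962), with 7.14 to 7.48 in the rats given sorafenib and 6.24 to 6.79 in the rats given its vehicle. With sunitinib alone at 24 h 2 of 15 regulators fell, a share near the 9.99% of all genes called there, the bile acid receptor Nr1h4 by 0.59 (adjusted p = 0.0418) and the oxysterol receptor Nr1h3 by 0.39 (adjusted p = 0.0493). Without the arrays of 4M48 and 7M78 these differences were -0.46 and -0.10, both with an adjusted p of 0.999. Over time in vehicle rats, Amacr rose by 0.42 at 6 h against 1 h (adjusted p = 0.0137), where 2.71% of all genes were called. It fell by 0.41 at 24 h against 6 h (adjusted p = 0.00965), where 4.75% were. Amacr was lower by 0.46 with F68/PG/PEG400 than with sterile water at 6 h (adjusted p = 0.0276), where 0.218% were.

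Genes with patterns most like the members were sought over the medians of the 24 liver groups among 11313 genes with a mean signal of at least 6. The points share treatments and times, so the correlations describe these groups only. Cyp8b1 ran closest to Casp6, Klhdc3 and Ankzf1 (Pearson r = 0.913, 0.912 and 0.906). Abcb11 ran closest to Gm2a (0.860), Hbp1 and Rbm33, and Cyp27a1 to Sdcbp (0.83), Rnf13 and Cnot1. For Cyp7a1 the nearest genes were Serpinh1 (0.772), Avpr1a and Copg1, for Slc10a1 Ech1 (0.738), Zfp697 and Ergic2, and for Nr0b2 Nags (0.728), Dnajb5 and Mbl2. No member was among the 3 genes nearest to another. Between group medians, Nr0b2 and Cyp8b1 had r = -0.47, and Abcb11 and Cyp8b1 had r = 0.69.

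Covariation of the members between rats of a group was measured over the 96 livers, after removing group means and array set. None of the 15 pairs passed after Benjamini-Hochberg adjustment over the pairs (two-sided permutation test, 100000 permutations within groups), and 3 had an unadjusted p under 0.05. The strongest was Abcb11 with Slc10a1, with Pearson r = 0.374 (p = 0.00577, adjusted p = 0.0865) and Spearman rho = 0.244 (p = 0.0384, adjusted p = 0.217). Without the 2 rats farthest from the median of Abcb11, 7M78 and 7M77, r was 0.276. The pair with the repressor, Nr0b2 and Cyp7a1, had r = 0.208 (p = 0.0883, adjusted p = 0.21) and rho = 0.297 (p = 0.0117, adjusted p = 0.175), and r was 0.179 without 6M66 and 6M71. Nr0b2 and Cyp8b1 had r = 0.042 (p = 0.746, adjusted p = 0.799) and rho = 0.113 (p = 0.329, adjusted p = 0.487), with r = 0.181 without 7M77 and 2M14.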

How the data were processed

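Liver, heart and bone marrow of 96 rats were profiled, 4 rats per treatment and time. The deposited values are log2 signals that the authors made from scanned arrays by RMA (version not given in the sources used here); they were used as they stand. The labels give 7.5 as the lowest RIN accepted, and the study's methods a different minimum. Of 31099 probe sets, 20832 had 1 gene symbol in the platform annotation, and 14218 genes remained with the highest-mean probe set of each. R 4.3.3 with limma 3.58.1 fitted 24 group means and 3 terms for array set (plates named in the array names) within time to the livers; groups came from the labels. Dosing ran over 2 days with 2 rats per group each, and which rats is not given. Each drug was set against rats given its own oral vehicle, in 30 comparisons and 5 F tests. Pair correlations used 100000 permutations. The fit was tested on simulated data first.

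Named genes are the 6 members, list genes called (at most 4 per list and comparison) and the 3 most alike genes. Members and lists were chosen with earlier results of these data known. Alternatives were a filter at a mean signal of 6, renewed quantile normalization, no array-set terms, array weights, leaving out 4M48 and 7M78, leaving out each of 96 rats, and single vehicles or oral drugs. Replicate numbers follow accession order and pair no samples.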

Additional observations from a re-analysis of the deposited data

Results flagged for a closer look

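A rat was marked where its distance to the nearest of the other 3 rats of its liver group took up most of the range of the group (Dixon's ratio, with chance marking about 1 in 20 groups). Of 144 group and gene combinations, 7 were marked. For Cyp8b1 these were rat 8M91 (TEM_vehicle + Sorafenib, 1 h, 11.94 beside 11.56 to 11.59, ratio 0.933), rat 6M67 (Temsirolimus + Sorafenib, 1 h, 10.78 beside 11.42 to 11.53, ratio 0.857), rat 4M39 (Temsirolimus + F68/PG/PEG400, 6 h, 11.31 beside 12.21 to 12.32, ratio 0.893) and rat 3M30 (Temsirolimus + sterile water, 24 h, 9.30 beside 10.47 to 10.61, ratio 0.887). Rat 3M30 is one of those without which the fall of Cyp8b1 after temsirolimus was not called. Slc10a1 was low in rat 1M9 (TEM_vehicle + sterile water, 6 h, 13.40 beside 13.66 to 13.69, ratio 0.912). Cyp27a1 was low in rat 7M78 (TEM_vehicle + Sunitinib, 24 h, 11.66 beside 12.58 to 12.72, ratio 0.874), whose array had the compressed distribution. Nr0b2 was high in rat 1M11 (TEM_vehicle + sterile water, 24 h, 10.87 beside 10.04 to 10.09, ratio 0.944).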

How the results depend on the processing

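No paired analysis was possible because replicate numbers follow accession order and pair no rats. The alternative with other probe sets was not run, since each gene had 1. Counts here are members called of 6. With a filter on mean signal, sunitinib alone at 24 h had 1 (Cyp8b1, adjusted p = 0.0482 by limma) in place of 0. Time in vehicle livers at 24 h against 6 h had 2 in place of 1 with renewed quantile normalization, without 4M48 and 7M78, and with array weights (Abcb11, adjusted p between 0.000711 and 0.013). In the 6 treatments with a drug it had 5, and 24 h against 1 h had 4 in place of 0, also without 4M48 and 7M78, in fits that called 43.6% and 20.4% of all genes. The 5 include Cyp7a1, at -0.81 there and 0.64, not called, in vehicle livers. Temsirolimus with sorafenib at 24 h had 1 in place of 0 without 4M48 and 7M78 and with array weights (Cyp7a1, adjusted p = 0.0432 and 0.0072). Temsirolimus alone at 24 h had 0 with either oral vehicle alone, in place of 1, and 2 over all oral agents, with or without 4M48 and 7M78. Temsirolimus in rats given an oral drug at 24 h had 1 in the sorafenib rats alone (Cyp8b1, -1.22, adjusted p = 0.0233), in place of 0. The causes were not tested, though single vehicles hold fewer rats.

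Leaving out 1 rat at a time gave 1 to 2 members for time at 6 h against 1 h and for 24 h against 6 h, and 0 to 2 for temsirolimus alone and for sunitinib alone at 24 h. It gave 0 to 1 for temsirolimus with sorafenib, temsirolimus in rats given an oral drug and all drug treatments at 24 h, and for the change of all drug treatments at 24 h against 6 h. Without 1M10 this last change called Cyp7a1 (-1.70, adjusted p = 0.0345), and without 4M41 temsirolimus alone did (-1.13, adjusted p = 0.0451). Without 7M77, 7M83 or 7M84, which leaves 7M78 among 3 rats, sunitinib alone called Cyp27a1 and either Nr0b2 (without 7M77) or Cyp8b1, and temsirolimus in rats given an oral drug called Slc10a1, in fits that called 36.2% to 43.7% and 19.6% to 24.4% of all genes. No member called in the first place changed direction in these alternatives. Leaving out the array-set terms changed no count.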
